A study of Mus musculus with 3 samples.

Results

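The 7 genes described here act in the respiratory chain or in the removal of mitochondria, and several of them are linked to low oxygen. Followed through single-cell libraries of mouse retina were Ndufa4l2 and its paralogue Ndufa4, the subunit isoforms Cox4i1 and Cox4i2, Higd1a, and the mitophagy receptors Bnip3 and Bnip3l. They were 7 of the 24071 genes in each count table, and each had reads in the kept cells of all 3 libraries. The genes were chosen by name after earlier results from these libraries had been seen, that is, selected on measured values such as the level of Ndufa4l2 in Müller glia. Their levels are therefore given as descriptions, for each library and each cell class, with no test.

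As background, cytochrome c oxidase (complex IV) hands electrons to oxygen at the end of the respiratory chain, and NDUFA4 and COX4I1 are among its nuclear-encoded subunits. NDUFA4 was first assigned to complex I, and its paralogue NDUFA4L2 is induced by the hypoxia-inducible factors (HIF) in cultured cells, where it lowers oxygen use. COX4I2 is the isoform of subunit IV that replaces COX4I1 under low oxygen in several cell types, HIGD1A is a small inner-membrane protein that binds complex IV, and BNIP3 and BNIP3L are outer-membrane receptors that hand mitochondria to the autophagy machinery. Müller glia span the whole depth of the retina and support its neurons, and the bipolar cells lie in the inner nuclear layer, between the photoreceptors and the inner plexiform layer.

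The study compared retinas of Tspan12 knockout mice treated with F4L5.13 (treated KO), Tspan12 knockouts with no treatment named in the labels (KO) and wild types (WT), all at P26, that is, at postnatal day 26. Tspan12 encodes a tetraspanin co-receptor of Norrin and Frizzled-4 signalling in retinal vessels, and F4L5.13 is an antibody agonist of Frizzled-4 and LRP5. Treated mice received intraperitoneal doses of 10 mg/kg on postnatal days 6, 9 and 12 and of 4 mg/kg at intervals of 3 days from then on, and the allele name Tspan12tm1.2Hjug stands as the strain of all 3 groups, WT included. After papain dissociation, dead cells and most photoreceptors were removed on beads (Annexin V and anti-CD73), so the share of rods and cones was set by the sort. Each group was 1 library made with the 10x Chromium 3′ v3 kit, and nothing in the labels says how many mice it pooled. There is no replicate check on any difference between groups.

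The tables cover the 7 genes at these places in the mouse genome (GRCm38, GENCODE annotation), all of them protein-coding. Ndufa4l2 spans chr10:127514967-127517154 on the plus strand, where its 3′ end overlaps that of Shmt2 on the other strand. Ndufa4 spans chr6:11900292-11907497 on the minus strand, Cox4i1 chr8:120668222-120674207 on the plus strand, Cox4i2 chr2:152754173-152765037 on the plus strand and Higd1a chr9:121848563-121858362 on the minus strand. Bnip3l spans chr14:66985239-67008877 on the minus strand. Bnip3 spans chr7:138890836-138909519 on the minus strand, and the antisense gene Gm45507 lies inside its 3′ part at chr7:138890964-138894675.

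The 2 promoters below, of Bnip3 and Ndufa4, are those of the 7 genes for which a window was available, and they were not picked by their levels. The set of RefSeq promoters used here (GRCm38.p6) held an entry for 3 of the 7 genes and none for the other 4. The window of Higd1a lies inside an annotated exon and is not printed. Both windows end just before the first annotated exon base and are written on the gene's own strand. Capitals mark the letters ACGTG or GCGTG on either strand, the core of the hypoxia response element.
Bnip3, 237 bases, chr7:138909520-138909756, minus strand: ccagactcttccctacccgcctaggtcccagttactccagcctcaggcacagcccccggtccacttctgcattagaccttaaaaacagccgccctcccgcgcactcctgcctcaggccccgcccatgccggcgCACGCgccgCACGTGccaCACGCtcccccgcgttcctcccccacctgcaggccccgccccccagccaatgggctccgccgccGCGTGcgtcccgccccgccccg
Ndufa4, 203 bases, chr6:11907498-11907700, minus strand: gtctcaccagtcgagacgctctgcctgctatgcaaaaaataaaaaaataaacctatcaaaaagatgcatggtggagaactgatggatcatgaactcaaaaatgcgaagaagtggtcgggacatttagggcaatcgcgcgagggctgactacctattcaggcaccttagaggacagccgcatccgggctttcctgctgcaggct
The Bnip3 window held 5 matches in 4 runs, which start 117, 108, 99 and 35 bases before the RefSeq start. The run CACGTG counts as 2 of them, since it holds ACGTG on both strands. The Ndufa4 window held 0 matches. Among 32851 mouse promoters cut to the same 237 bases, 36.9% held at least 1 match (ACGTG in 15.7%, GCGTG in 26.8%), and for the 203-base window the share was 32.0% (13.1% and 22.9%). A match is a run of letters and says nothing of binding.

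The treated KO, KO and WT tables held 9835, 10769 and 6092 barcodes and 129812845, 140445417 and 118672494 reads, and 8281, 9400 and 5785 cells were kept, with medians of 7769, 6838 and 14246 reads. Barcodes shared between libraries came to 63 pairs. The targeted gene, Tspan12, was measured at 25.4 (22.3 to 28.7), 29.8 (27.0 to 32.9) and 45.4 (41.8 to 49.2) counts per 1e6 reads (CPM) in treated KO, KO and WT Müller glia. A 3′ tag can lie outside the deleted part of a gene, so this level does not check the labels. Values in parentheses after a level are 95% intervals of counting error only, computed after reads were divided by 3.19 (treated KO), 2.87 (KO) and 2.77 (WT) to approximate molecules, and they say nothing of differences between mice. Of 125 clusters 9 stayed unnamed (1859, 1833 and 240 cells), and the named classes used most here held 1181, 1330 and 1664 Müller glia, 834, 628 and 870 rod bipolar cells, 877, 604 and 1009 ON cone bipolar cells and 410, 444 and 653 OFF cone bipolar cells (treated KO, KO and WT). Müller glia carried all 12 Müller markers fixed for the naming, at 38451, 43209 and 42001 CPM summed.

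Levels were compared between genes without division by length, since the kit tags the 3′ end of a transcript. The genes had very different ranges over the cell classes. Ndufa4l2 was a gene of Müller glia and of vessel-associated cells, at 179, 1500 and 102 CPM in treated KO, KO and WT Müller glia, against at most 11.2 CPM in any bipolar class of any library. In mural cells, the contractile cells of vessel walls, it stood at 1121 CPM in 6 treated KO cells and 816 CPM in 11 KO cells. A class with both endothelial and mural markers had 442 CPM in 29 treated KO cells and 459 CPM in 87 WT cells. Cox4i2 had the same main classes: it reached 703, 1272 and 891 CPM in treated KO, KO and WT Müller glia, and 768 and 301 CPM in the treated KO and KO mural cells. Their paralogues were read in every class. Ndufa4 was highest in rods, at 2818, 2505 and 3251 CPM, and lower in ON cone bipolar cells, at 1140, 792 and 1165 CPM. Cox4i1 kept a narrow range, from 1066 CPM (treated KO Müller glia) to 1944 CPM (KO rod bipolar cells) among Müller glia and the bipolar, amacrine, horizontal, rod and cone classes. Bnip3 and Higd1a were highest in bipolar, amacrine and horizontal cells, both above their levels in rods and cones in KO retinas. Bnip3l exceeded Bnip3 in each of those classes, by the reads assigned to Bnip3 alone. Reads of Bnip3 are divided with Gm45507, which read 102, 213 and 86.6 CPM in treated KO, KO and WT rod bipolar cells. The order of the receptors is thus uncertain.

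**Figure D1:**
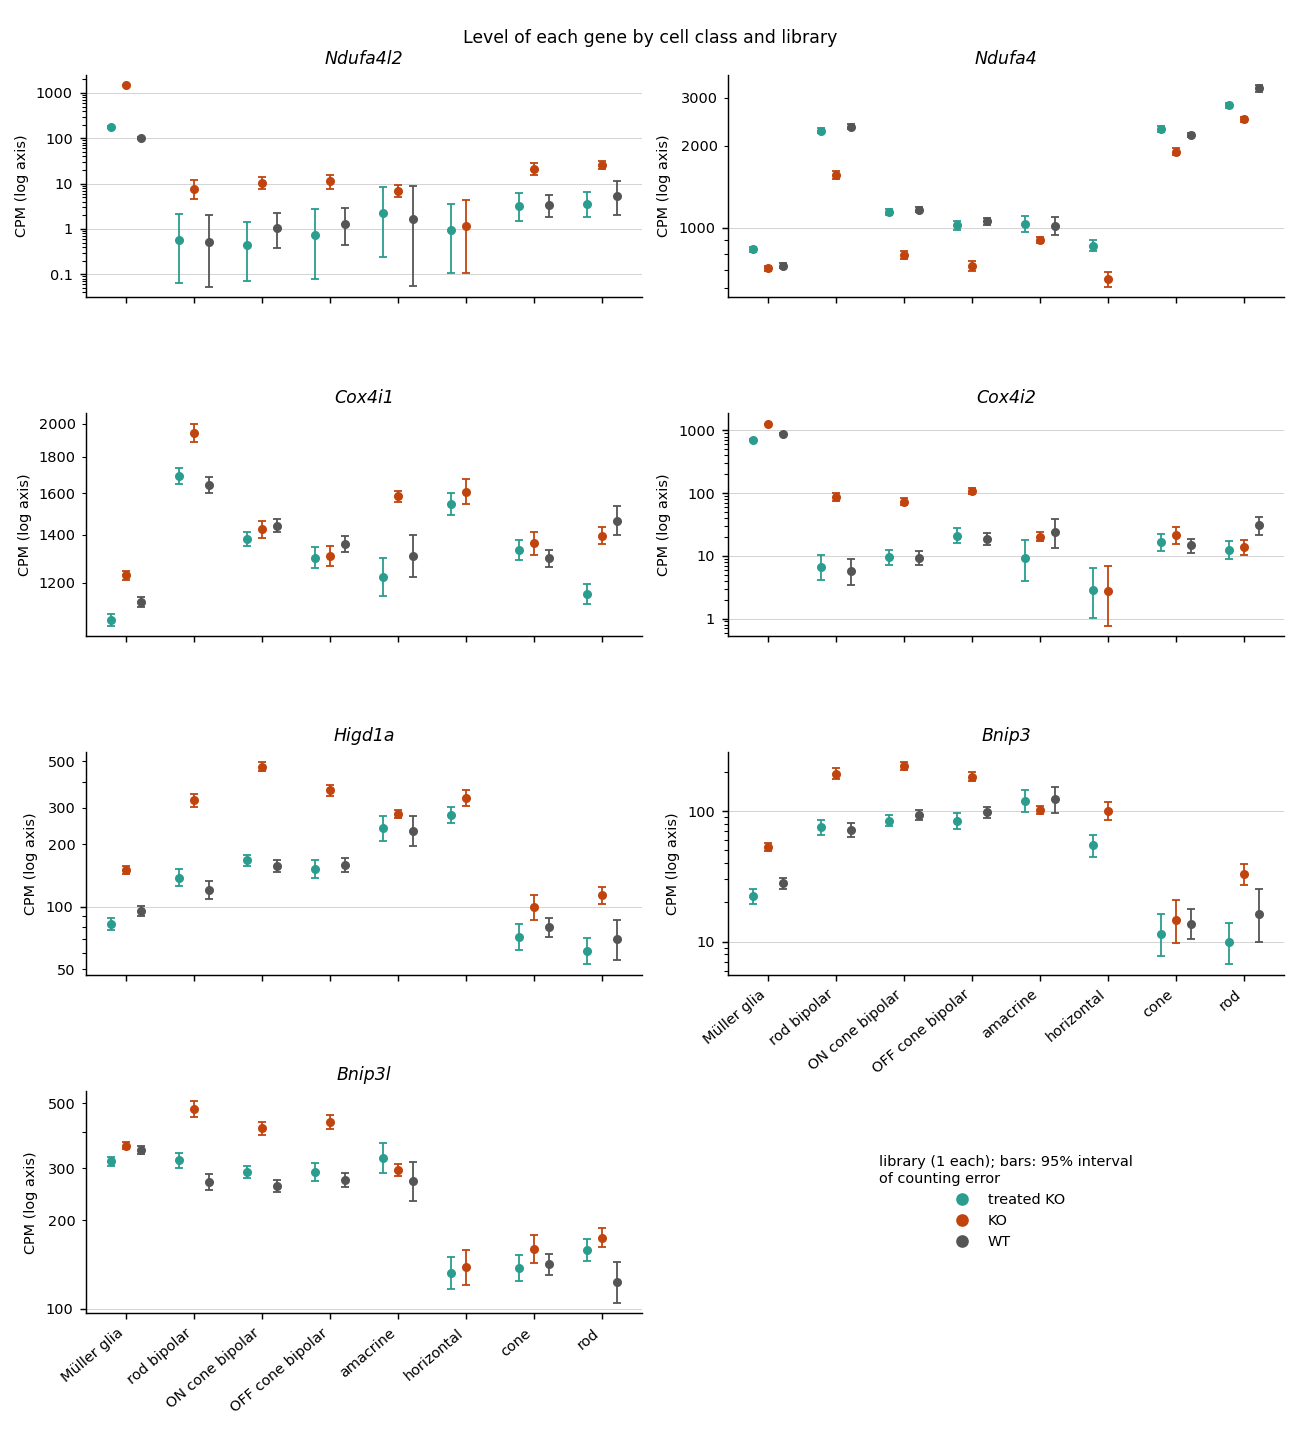
Level of each of the 7 genes (CPM, log axis) in 8 cell classes of the treated KO, KO and WT libraries, for classes with at least 50 cells in the library; points are sums over the cells of a class and bars the 95% interval of counting error. The KO point stands above both others for Ndufa4l2 in Müller glia (1500 CPM against 179 in treated KO and 102 in WT) and for Cox4i2, Higd1a and Bnip3 in the 3 bipolar classes.

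In Müller glia the pair Ndufa4l2 and Ndufa4 changed its balance between the libraries, and only the Ndufa4l2 side of it moved past 2-fold. Ndufa4l2 was 14.6-fold higher in KO than in WT (13.9 to 15.5), and 8.38-fold lower in treated KO than in KO (ratio 0.119, 0.114 to 0.125). It remained above WT in treated KO, at a ratio of 1.75 (1.63 to 1.88), under the 2-fold limit. Ndufa4 read 834, 709 and 724 CPM in treated KO, KO and WT, with ratios of 0.979 for KO over WT, which lay on either side of 1 under other settings (0.719 to 1.08), and 1.18 for treated KO over KO. Of Ndufa4l2 and Ndufa4 reads together, Ndufa4l2 took 17.7% (16.9 to 18.4) in treated KO, 67.9% (67.4 to 68.4) in KO and 12.4% (11.8 to 13.0) in WT. The ratio of Ndufa4l2 to Ndufa4 reads was thus 0.214, 2.12 and 0.141. A difference was called where it reached 2-fold, the near end of its interval lay beyond 1.5-fold, and the library with more had the equivalent of 30 molecules or more. Of the 7 genes, 1 was called higher in KO over WT (Ndufa4l2), where 2.93% of 14015 genes were called higher and 2.13% lower. In treated KO over KO 2 were called lower (Ndufa4l2 and Bnip3), with 1.69% of 13668 genes called lower and 1.39% higher. In treated KO over WT 0 were called, with 1.2% called higher and 0.411% lower. The genes were chosen with these contrasts known, so nothing is read from their counts here.

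The same balance was seen cell by cell. Among Müller glia, 140 treated KO cells (11.9%), 906 KO cells (68.1%) and 121 WT cells (7.27%) had more Ndufa4l2 than Ndufa4 reads. The median cell had 0 CPM of Ndufa4l2 in treated KO, 1346 CPM in KO and 0 CPM in WT, while the highest 5% of cells exceeded 920, 4068 and 577 CPM. After each cell was thinned to 5000 reads, Ndufa4l2 had a read in 29.5% of treated KO, 88.2% of KO and 18.1% of WT Müller cells (42.7%, 93.6% and 26.9% unthinned), with 44, 28 and 0 shallower cells left out. In rod bipolar cells, which serve as the background of free RNA, the thinned shares were 0.123%, 2.16% and 0.346%. Most WT and treated KO Müller glia thus had no Ndufa4l2 read at this depth, and a minority of them reached levels seen in KO cells. Across KO Müller cells, Ndufa4l2 ran with Cox4i2 (Spearman rho 0.34 over 1302 thinned cells) and against Ndufa4 (rho −0.27), where the corresponding values were 0.04 and −0.00 over 1137 treated KO cells and 0.04 and −0.02 over 1664 WT cells. Cells of 1 library share their preparation, and these values are descriptions only.

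The 18 Müller clusters separated the libraries as well. In 5 of them Ndufa4l2 exceeded Ndufa4, and these held 135 treated KO cells (11.4%), 1009 KO cells (75.9%) and 32 WT cells (1.92%). Ndufa4l2 was among the genes that formed the clusters, so these shares are no independent evidence. Within the single cluster with at least 30 KO and 30 WT cells, Ndufa4l2 was 23.0-fold higher in KO (1135 against 49.4 CPM, 89 KO and 50 WT cells), and Ndufa4 had a ratio of 0.636. This was the Müller cluster with the highest summed rod markers, 53102 CPM, whose part in these ratios was not tested. Within 4 clusters shared by treated KO and KO, the ratio of Ndufa4l2 lay between 0.0605 and 0.266. Ndufa4 followed another measure: in 8 clusters it read 386 to 463 CPM where the summed rod markers came to 698 to 1228 CPM, and in 9 clusters it read 862 to 1882 CPM where they came to 3245 to 53102 CPM. Rod markers summed to 11813, 10267 and 10662 CPM over all treated KO, KO and WT Müller glia, and cone markers to 1941, 2327 and 587 CPM. In the clusters with under 2000 CPM of rod markers, chosen after the data were seen, Ndufa4l2 took 28.1%, 82.8% and 17.1% of the pair's reads (700, 754 and 1282 cells), and its ratio was 21.4 for KO over WT and 0.0833 for treated KO over KO. The order of the libraries was the same there. Each share and the KO over WT ratio were higher than over all Müller glia, and the treated KO over KO ratio was lower.

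**Figure D2:**
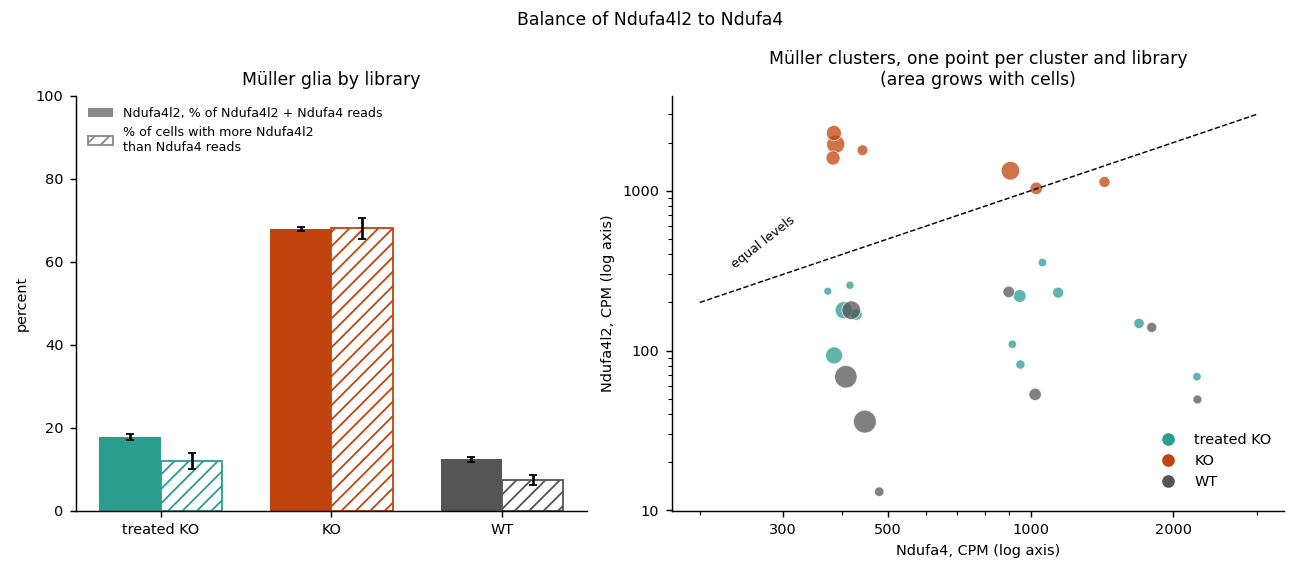
Left, per library, the share of Ndufa4l2 among Ndufa4l2 and Ndufa4 reads in Müller glia (filled bars) and the share of Müller cells with more Ndufa4l2 than Ndufa4 reads (hatched bars), in percent with 95% intervals of counting error; right, Ndufa4l2 against Ndufa4 (CPM, log axes) in each Müller cluster with at least 30 cells of a library, with point area growing with the number of cells. KO clusters lie on both sides of the dashed line of equal levels and above the treated KO and WT clusters, all of which lie below the line.

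The subunit IV isoforms differed by less, with KO highest again but treated KO below WT. Cox4i2 read 703 (686 to 719), 1272 (1253 to 1291) and 891 (875 to 907) CPM in treated KO, KO and WT Müller glia. Its ratios were 1.43 (1.39 to 1.46) for KO over WT, 0.552 (0.537 to 0.568) for treated KO over KO and 0.789 for treated KO over WT, all under 2-fold. Cox4i1, the ubiquitous isoform, read 1066, 1229 and 1130 CPM. Cox4i2 therefore took 39.7%, 50.9% and 44.1% of the reads of the isoform pair. Within the shared KO and WT cluster, the one highest in rod markers, Cox4i2 had a ratio of 2.33 (1066 against 458 CPM), and in the clusters with under 2000 CPM of rod markers, 1.53 (1.49 to 1.58). Treated KO stood below WT for Cox4i2 in all 7 clusters shared by those libraries (0.826 to 0.946), whereas Ndufa4l2 stood above WT in 6 of the 7 (0.943 to 4.67).

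Higd1a and Bnip3 also had their highest Müller level in KO. Higd1a read 82.6 (77.0 to 88.5), 151 (144 to 157) and 95.4 (90.2 to 101) CPM in treated KO, KO and WT, with ratios of 1.58 for KO over WT and 0.548 for treated KO over KO. Bnip3 read 22.3 (19.5 to 25.4), 53.2 (49.4 to 57.2) and 28.0 (25.2 to 31.0) CPM. It was 1.90 times as high in KO as in WT (1.67 to 2.16), short of 2-fold, and it fell in treated KO against KO (ratio 0.419, 0.359 to 0.488). Bnip3l read 317, 358 and 346 CPM, with ratios of 1.03 and 0.885. Bnip3 made up 6.58%, 12.9% and 7.48% of the reads of the receptor pair. The Bnip3 level is uncertain, since the tables divide reads between Bnip3 and the antisense gene Gm45507: 24.9%, 38.9% and 28.1% of its nonzero values were fractional, and in all of these Gm45507 held the rest. With both genes summed the level was 63.0, 125 and 63.8 CPM in Müller glia. The ratios were then 1.96 for KO over WT and 0.503 for treated KO over KO, and Bnip3 was no longer called lower in treated KO. The labels do not say whether counting used strand. The other 6 genes had at most 2 fractional values in a library.

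In rod bipolar cells Cox4i2, a minor isoform there, had the largest KO over WT ratio of the genes tested. Cox4i2, Higd1a and Bnip3 rose in KO over WT in rod and ON cone bipolar cells and fell in treated KO against KO in all 3 bipolar classes, to levels that were not called against WT, while Ndufa4 stood below WT in KO in all 3. In rod bipolar cells Cox4i2 read 6.72 (4.19 to 10.2), 86.0 (74.3 to 99.1) and 5.72 (3.49 to 8.84) CPM in treated KO, KO and WT. It was 15.0-fold higher in KO than in WT (9.46 to 25.2) and 12.8-fold lower in treated KO than in KO (ratio 0.0782). ON cone bipolar cells had 9.61, 73.4 and 9.36 CPM, a 7.84-fold rise in KO over WT (5.86 to 10.7), and OFF cone bipolar cells had 21.1, 109 and 18.8 CPM, a 5.79-fold rise (4.52 to 7.49). The OFF cells of KO lay mostly in other clusters than those of WT: 4 clusters with 101, 56, 47 and 23 of the 444 KO cells held at most 7 treated KO and 11 WT cells each. In the single OFF cluster shared by KO and WT (57 cells of each) the Cox4i2 ratio was 9.81. Even so, Cox4i1 far exceeded Cox4i2: the share of Cox4i2 in the pair was 0.396%, 4.24% and 0.347% in treated KO, KO and WT rod bipolar cells and at most 7.67% in any bipolar class, that of KO OFF cone bipolar cells.

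Higd1a had a ratio of more than 2 in each bipolar class. It read 138, 325 and 120 CPM in treated KO, KO and WT rod bipolar cells, which is 2.71-fold higher in KO than in WT (2.40 to 3.06) and a ratio of 0.424 for treated KO over KO. In ON cone bipolar cells it read 167, 473 and 157 CPM, 3.01-fold higher in KO, and in OFF cone bipolar cells 152, 363 and 159 CPM, 2.28-fold higher in KO. Bnip3 read 75.1, 194 and 71.6 CPM in treated KO, KO and WT rod bipolar cells (2.71-fold higher in KO over WT) and 84.7, 221 and 93.9 CPM in ON cone bipolar cells (2.35-fold higher). In OFF cone bipolar cells it read 84.2, 184 and 97.7 CPM, a ratio of 1.88 that was not called. Bnip3l, the second receptor, had KO over WT ratios of 1.77, 1.57 and 1.58 in rod, ON cone and OFF cone bipolar cells, under 2-fold. The share of Bnip3 in the receptor pair was 22.5%, 35.0% and 26.4% in treated KO, KO and WT ON cone bipolar cells. Reads assigned to Gm45507 are left out of these shares and levels, which are uncertain as in Müller glia.

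Ndufa4 ran the other way in bipolar cells. It read 2273 (2221 to 2326), 1566 (1514 to 1618) and 2354 (2303 to 2405) CPM in treated KO, KO and WT rod bipolar cells, with ratios of 0.665 for KO over WT and 1.45 for treated KO over KO. The ratios were 0.680 and 1.44 in ON cone bipolar cells and 0.686 and 1.41 in OFF cone bipolar cells, so that no class reached 2-fold. Cox4i1 had ratios close to 1 in ON and OFF cone bipolar cells, at 1425 and 1308 CPM in KO against 1442 and 1360 CPM in WT. Of the genes that could be tested, 3 of 6 were called higher in KO over WT in rod bipolar cells and 0 lower, where 0.989% of all genes tested were called higher and 1.59% lower. There were 4 of 7 in ON cone bipolar cells (1.32% higher, 0.585% lower) and 3 of 7 in OFF cone bipolar cells (1.92% higher, 0.981% lower), with 0 lower in both. The counts in both cone bipolar classes include Ndufa4l2, also for treated KO over KO, and its reads there are set beside free Müller RNA further on. In treated KO over KO, 3 of 6 were called lower in rod bipolar cells and 0 higher, against 0.972% of all genes called lower and 0.929% higher. There were 4 of 7 called lower in ON cone bipolar cells (1.26% lower, 0.745% higher) and 4 of 7 in OFF cone bipolar cells (1.8% lower, 0.737% higher). In treated KO over WT 0 of 5, 0 of 6 and 0 of 6 were called in either direction in the rod, ON and OFF classes. There the share of all genes called was 0.0612% higher and 0.561% lower in rod bipolar cells, 0.193% and 0.176% in ON cone bipolar cells, and 0.101% and 0.266% in OFF cone bipolar cells. Each class shares its KO cells between the first pair of comparisons, so these counts are not independent of each other.

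**Figure D3:**
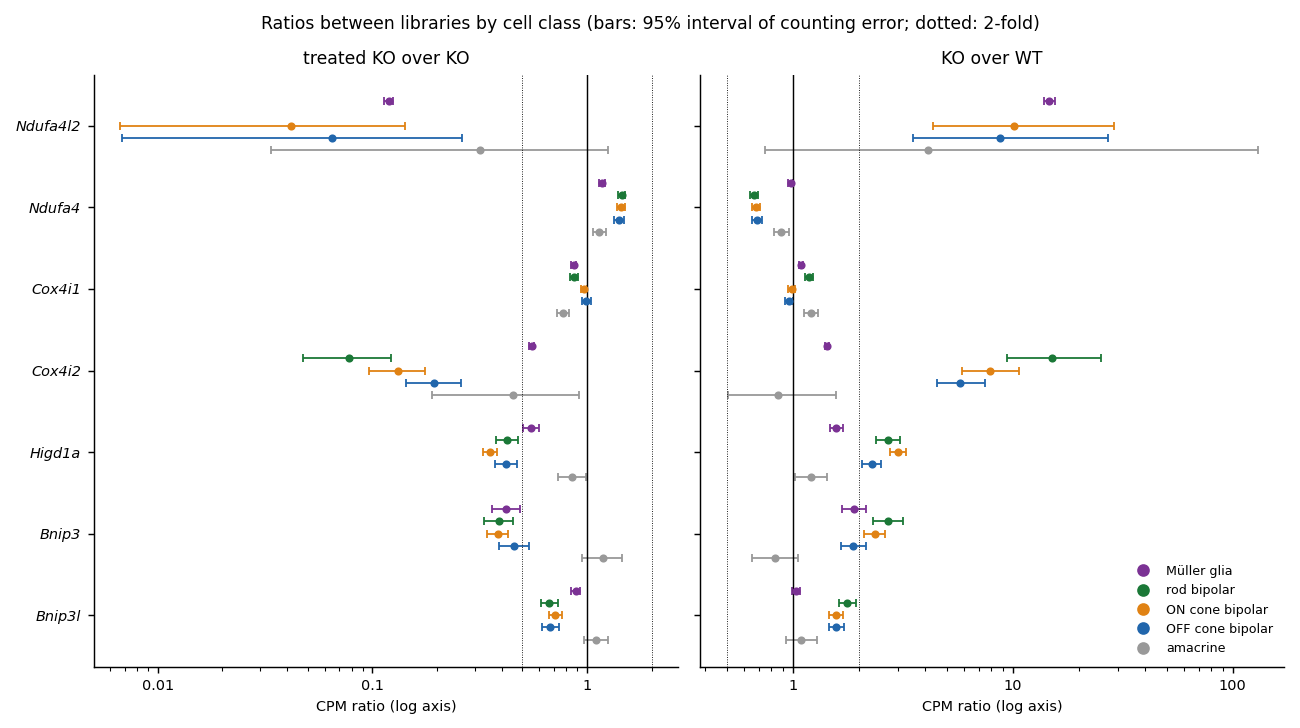
CPM ratios of the 7 genes for treated KO over KO (left) and KO over WT (right) in Müller glia, 3 bipolar classes and amacrine cells, on a log axis with 95% intervals of counting error; dotted lines mark 2-fold, and a gene with under 30 molecule equivalents in both libraries is left out. Ndufa4l2 in Müller glia stands at 0.119 and 14.6, Cox4i2 in rod bipolar cells at 0.0782 and 15.0, and Ndufa4 in the bipolar classes lies on the opposite side of 1 from these.

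Single bipolar clusters, each smaller than its class, were compared as well. Among the 11 clusters with at least 30 KO and 30 WT cells, KO exceeded WT in 11 for Cox4i2 (1.94 to 16.4), in 11 for Higd1a (1.91 to 3.69), in 11 for Bnip3l (1.10 to 2.30) and in 10 for Bnip3 (0.983 to 4.60). Ndufa4 was below WT in all 11 (0.507 to 0.745), and Cox4i1 was above WT in 5 and below in 6. Among 12 clusters shared by treated KO and KO, treated KO was below KO in 12 for Higd1a (0.276 to 0.555) and Bnip3 (0.173 to 0.638) and in 11 for Cox4i2 (0.0275 to 1.31), and above KO in 12 for Ndufa4 (1.35 to 1.94). Clusters of 1 library share its preparation and are not replicates.

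**Figure D4:**
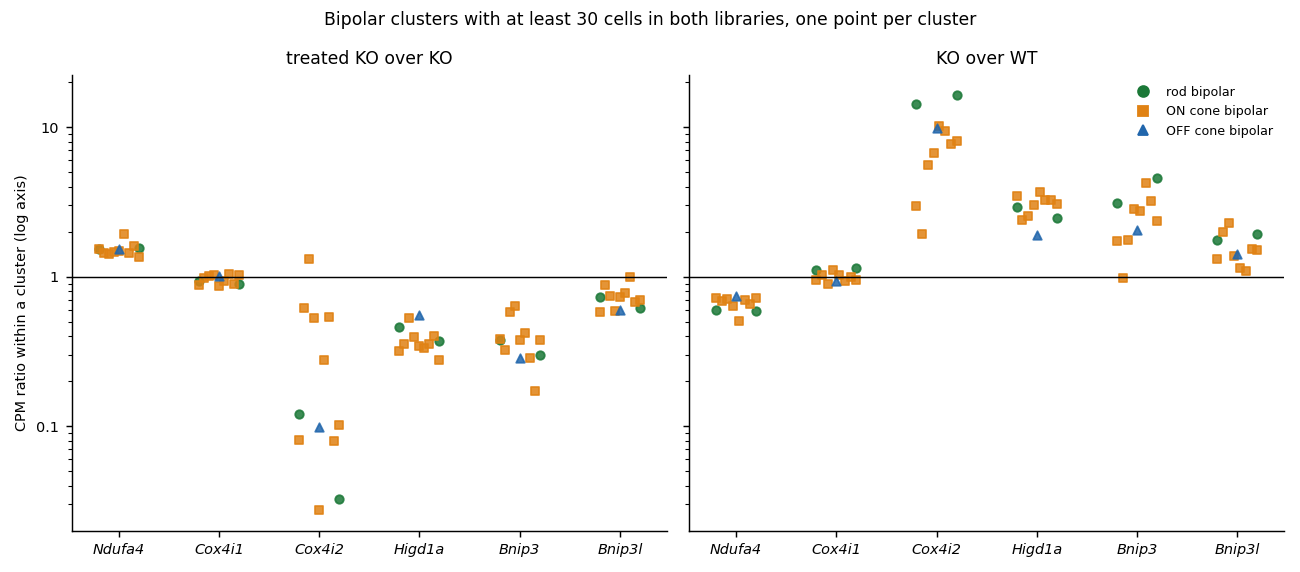
Ratios of 6 genes within single bipolar clusters (1 point per cluster, log axis) for treated KO over KO (left, 12 clusters) and KO over WT (right, 11 clusters), with marker shape giving the bipolar class. In the KO over WT panel all Cox4i2 and Higd1a points lie above 1 (lowest 1.94 and 1.91) and all Ndufa4 points below it (highest 0.745).

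Reads of Müller transcripts also occur in neurons as free RNA, so the Müller genes were set against Müller markers within each library. In KO rod bipolar cells, Cox4i2 stood to Rlbp1, Glul and Apoe reads at 13.6, 7.10 and 21.8 times its ratio in KO Müller glia, and in KO ON and OFF cone bipolar cells at 4.60 to 26.3 times. Ndufa4l2 stood at 1.03, 0.538 and 1.65 times in KO rod bipolar cells and at 0.558 to 2.66 times in the KO cone bipolar classes. Its 7.68 CPM in KO rod bipolar cells (0.585 in treated KO and 0.520 in WT) and its 10.6 and 11.2 CPM in KO ON and OFF cone bipolar cells are thus given as values and not as expression, although the cone bipolar ratios of KO over WT, 10.2 and 8.77, passed the fold. Summed astrocyte markers moved with the same library: they came to 173, 464 and 184 CPM in treated KO, KO and WT rod bipolar cells, with 2 of the 10 markers at 0 in each library, and Müller markers to 194, 266 and 216 CPM with none of 12 at 0. The part of these marker reads in the result was not tested. The astrocyte list holds the aldolase gene Aldoc among its 10 markers, and which marker carried the rise is not given here. By cells, Cox4i2 had a read in 2.45% of treated KO, 23.4% of KO and 2.54% of WT rod bipolar cells thinned to 5000 reads (3.72%, 31.7% and 4.37% unthinned). The thinned shares in Müller glia were 92.4%, 98.2% and 96.2%.

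In amacrine cells, of 7 genes tested, 0 were called in KO over WT (0.644% of genes tested called higher, 0.869% lower), and 0 in treated KO over KO (0.765% higher, 0.717% lower) or, of 5 tested, in treated KO over WT (0.384% higher, 0.439% lower), with 137, 1153 and 109 treated KO, KO and WT cells. Cox4i2 read 9.17, 20.3 and 23.6 CPM, with an interval of 0.505 to 1.57 around the KO over WT ratio of 0.860, and this ratio rests on few cells: the 5 cells with most reads held 100% of 25 treated KO, 27.7% of 397 KO and 97.6% of 42 WT reads. Higd1a had a ratio of 1.21 (1.02 to 1.44) and Bnip3 of 0.826 (0.654 to 1.06). In the single amacrine cluster with at least 30 cells of both libraries Cox4i2 had a ratio of 3.77 (8.09 against 2.15 CPM), above that of the whole class. Beside Rlbp1, Glul and Apoe reads, Cox4i2 stood at 0.799 to 0.857 times its Müller ratio in WT amacrine cells. In KO amacrine cells it stood at 0.754 to 3.497 times. Müller markers summed to 910, 813 and 1609 CPM in treated KO, KO and WT amacrine cells. The part of free Müller RNA in the whole-class ratio was not tested. Horizontal cells could be compared in treated KO over KO alone (94 and 80 cells), where 0 of 5 genes were called (0.24% of all tested called higher, 0.84% lower) and Bnip3 had a ratio of 0.541 (54.6 against 101 CPM).

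In photoreceptors the levels of the hypoxia-linked isoforms were low. Ndufa4l2 read 3.26, 21.4 and 3.30 CPM in treated KO, KO and WT cones and was called higher in KO over WT (6.48-fold, 1 of 7 genes, with 0.767% of all genes called higher and 0.399% lower) and lower in treated KO over KO (ratio 0.152, 1 of 7 genes, with 0.955% of all genes called lower and 0.68% higher). The cone call rests on few cells, since the top 5 cells held 92.9% of 28 treated KO, 43.4% of 122 KO and 82.1% of 39 WT reads, and the KO over WT ratio ran from 2.32 to 53.5 in 3 shared clusters. In treated KO over WT cones 0 of 6 were called, with 0.189% of all genes called higher and 0.115% lower. In rods it read 3.62, 25.4 and 5.37 CPM, 4.73-fold higher in KO over WT, where 9.3% of all genes were called higher and 0.347% lower, against 203 WT rods only. It was the 1 gene of the 7 called there. WT rods lay mainly in clusters of 91 and 61 WT cells that held 16 and 15 KO and 47 and 37 treated KO cells, and their median depth was 14729 reads, against 4230 in treated KO and 4110 in KO rods. Beside Müller markers, Ndufa4l2 in KO rods and cones stood at 1.26 to 3.12 times its ratio in KO Müller glia. Bnip3 fell in treated KO rods (9.86 against 32.8 CPM in KO rods, ratio 0.301), together with Ndufa4l2 (0.143), the 2 of 7 called lower there beside 1.67% of all genes, with 0.29% called higher. Cox4i2 in rods went against the bipolar pattern, at 12.5, 13.7 and 30.7 CPM, with a KO over WT ratio of 0.447 (0.288 to 0.701) that was not called. In the single rod cluster shared by KO and WT the Cox4i2 ratio was 0.436. Over all rods Cox4i2 was called lower in treated KO over WT (0.406), 1 of 6 tested, with 0.422% of all genes called lower and 5.36% higher. Within the 3 rod clusters shared by treated KO and WT that ratio was 0.176, 1.11 and 2.69, so the direction over all rods was not that of each cluster. Ndufa4 had KO over WT ratios of 0.770 in rods and 0.869 in cones. In the single rod cluster shared by KO and WT (1171 and 46 cells) it was 1.05 (0.928 to 1.18), and in 3 cone clusters 0.893 to 0.969.

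Small classes are given as levels. The 22, 26 and 49 treated KO, KO and WT astrocytes had 17.2, 102 and 9.50 CPM of Ndufa4l2, with intervals of 7.48 to 33.6, 76.1 to 134 and 4.09 to 18.8, so the KO interval lay above both others. Müller glia had the same order, at 179, 1500 and 102 CPM. Astrocytes were not set beside Müller markers, so the part of free Müller RNA in their reads was not tested. Ndufa4l2 took 4.09%, 19.6% and 2.33% of the pair's reads in the astrocytes. Cox4i2 had another order in astrocytes, at 192, 142 and 317 CPM. In mural cells Ndufa4l2 took 82.8% of the pair in 6 treated KO cells and 74.6% in 11 KO cells, with intervals of 68.0 to 92.7 and 62.4 to 84.5, of which the KO interval includes the 67.9% of KO Müller glia. In the class with endothelial and mural markers it took 48.0% in 29 treated KO cells and 47.3% in 87 WT cells.

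Other genes of the same pathways were read from lists compiled by function. Targets of HIF in glycolysis and signalling moved most. In Müller glia 6 of 30 tested were called higher in KO over WT and 0 lower (median log2 ratio 0.69, against −0.00 over all genes tested). Beside them, 2.93% of all genes were called higher and 2.13% lower. In treated KO over KO 7 of 30 were called lower and 0 higher (−0.47 against 0.02), beside 1.69% of all genes lower and 1.39% higher. Adm, which encodes the vasodilator peptide adrenomedullin, read 14.4, 129 and 2.25 CPM in treated KO, KO and WT Müller glia, 57.4-fold higher in KO than in WT. It was 0.112 of the KO level in treated KO, still 6.42-fold above WT. Vegfa, the vascular growth factor, was 2.95-fold higher in KO over WT (414 against 140 CPM). Egln3, an oxygen-sensing prolyl hydroxylase, was 5.55-fold higher, and Slc16a3, a lactate exporter, 2.87-fold higher. In treated KO over KO, Egln3 fell to a ratio of 0.291, Slc16a3 to 0.358 and Pgk1, a glycolytic kinase, to 0.339.

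The other respiratory genes moved far less. In Müller glia 0 of 11 nuclear complex IV subunits, 0 of 28 complex I subunits, 0 of 6 mitochondria-encoded subunits, 0 of 4 genes of the HIG1 family and supercomplex assembly and 0 of 12 genes of mitochondrial content were called in KO over WT or in treated KO over KO. Their median log2 ratios for KO over WT lay between −0.16 and 0.19. Over all genes tested in Müller glia, 2.93% were called higher and 2.13% lower in KO over WT. In treated KO over KO 1.39% were called higher and 1.69% lower. At these shares lists of this size can hold 0 calls, so little is read from the counts. Of 26 mitophagy receptors and regulators besides Bnip3 and Bnip3l, 0 were called in KO over WT, and 1 in treated KO over KO (Pptc7, a mitochondrial phosphatase that restrains BNIP3 and BNIP3L, at 5.99 against 2.55 CPM, ratio 2.35). The complex IV subunit Cox7c was called lower in treated KO over WT (67.4 against 136 CPM, ratio 0.494). In rod bipolar cells 10 of 27 HIF targets were called higher in KO over WT (median log2 0.83 against −0.04) and 11 of 26 lower in treated KO over KO (−0.86 against 0.06). There 0 of 25 mitophagy genes, 0 of 9 complex IV and 0 of 28 complex I subunits were called in KO over WT. Of all genes tested, 0.989% were called higher and 1.59% lower in KO over WT, and 0.929% higher and 0.972% lower in treated KO over KO. Chosen after their values were seen, Hk2 (hexokinase) was 4.73-fold higher in KO rod bipolar cells than in WT and Pfkfb3 (a regulator of glycolysis) 5.54-fold higher. In ON cone bipolar cells 8 of 29 HIF targets were called higher in KO over WT and 0 lower, beside 1.32% of all genes called higher (median log2 0.72 against −0.01). In OFF cone bipolar cells 6 of 28 were called higher and 0 lower, beside 1.92% of all genes (0.62 against 0.01).

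**Figure D5:**
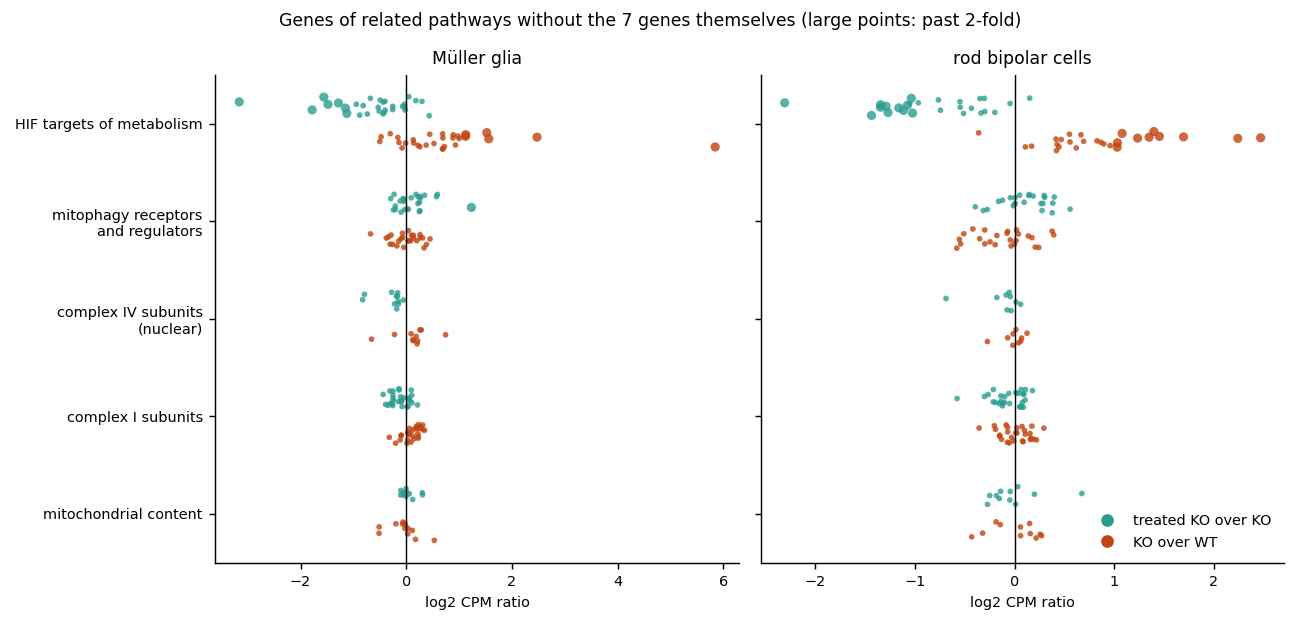
Log2 CPM ratios of the genes of 5 lists in Müller glia (left) and rod bipolar cells (right), for treated KO over KO and KO over WT; the 7 genes themselves are left out and large points are called differences. HIF targets spread to positive values in KO over WT (median 0.69 and 0.83) and to negative values in treated KO over KO (median −0.47 and −0.86), while the complex I points and nearly all mitophagy and complex IV points stay within 2-fold.

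Over 25 sums of a class and a library with at least 50 cells, the genes whose pattern was most like that of Ndufa4l2 (Pearson r of log2(CPM + 10), 16341 genes) were Aox1 (0.97), Gm43302 (0.96), Osmr (0.96), Gbp6 (0.94) and S100a10 (0.94), all 5 at most at 0.313 CPM in rod bipolar cells. Of the 7, Cox4i2 was nearest to it (0.86). Aox1, Gm43302 and Gbp6 were low, at 9.57, 17.0 and 6.92 CPM in KO and 4.16, 8.14 and 3.34 CPM in WT Müller glia. These levels are near the 10 CPM added before the logarithm. Osmr, a cytokine receptor subunit, read 46.1, 73.9 and 23.1 CPM in treated KO, KO and WT Müller glia and S100a10, a calcium-binding protein family member, 48.7, 84.6 and 24.8 CPM, so both had the order of Ndufa4l2 with a smaller spread. The genes most like Bnip3 were its antisense neighbour Gm45507 (0.97), the neuronal glucose transporter Slc2a3 (0.95), Gm11110 (0.94), Gm45846 (0.94) and the glycolytic enzyme gene Tpi1 (0.94), and Higd1a was the nearest of the 7 (0.90). Bnip3 and Gm45507 divide shared reads, so their r is no evidence of a like pattern. Sums of 1 library share its depth and preparation, so these r values are descriptions.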

How the data were processed

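The members, the marker and gene lists and the rules were chosen with earlier results of these data known. The values as deposited are estimated counts per gene and cell barcode, a reading from the values: 2.34%, 2.33% and 2.39% of nonzero values (treated KO, KO, WT) lay more than 0.001 from a whole number. The submitters' processing notes name mm10 and Partek 9.0. The counting annotation, strand and any collapse to molecules are not given in the sources used here. In genes seen in under 1% of barcodes, 48.3%, 53.2% and 54.6% of values up to 10 were 1, so values were taken as reads and divided by 3.19, 2.87 and 2.77 (squared values over values in those genes) to give molecule equivalents, where the plan had assumed molecules. Values were rounded to whole numbers first.

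Barcodes with under 500 genes or over 20% mitochondrial reads were left out, then the 636, 839 and 296 barcodes (treated KO, KO, WT) nearest to simulated doublets (0.8% per 1000 barcodes). Kept cells were clustered together (2000 variable genes, 40 components, 15 neighbours, Leiden resolution 1, sub-clusters 0.5) with no batch correction. A cluster was named where at least 3 markers of a class were 2-fold above the other clusters in at least 20% of its cells and the 10 leading genes did not contradict the name.

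Reads were summed per class and library and scaled to 1e6 reads of the class. Level intervals are exact Poisson, shares Clopper-Pearson and ratios conditional binomial intervals, at 95%, and cover counting error only. Calls need 30 molecule equivalents, 2-fold and a bound beyond 1.5. The calls were run on data simulated under the counting model that they assume. That run leaves out differences between cells and libraries and any error in the divisors, so it is no check on these. With 1 library per group, no test between groups was possible. Named list genes are at most the 4 highest and 4 lowest past the fold in Müller glia, and genes of like pattern the 8 (Ndufa4l2) and 5 (Bnip3) with the highest r. Of those 8, the first 5 are named, since a gene further down is not reported here. Python 3.11.15, numpy 2.4.6, scipy 1.17.1, pandas 2.3.3, scikit-learn 1.9.0, igraph 0.11.9, leidenalg 0.10.2 and matplotlib 3.10.9 were used, with R 4.3.3 and edgeR 4.0.16 for TMM factors as an alternative.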

Additional observations from a re-analysis of the deposited data

Results flagged for a closer look

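Cox4i2 had opposite directions in a pair of classes under the same contrast. Its KO over WT ratio was 15.0 in rod bipolar cells (86.0 against 5.72 CPM) and 0.447 in rods (13.7 against 30.7 CPM). With 1 library per group the difference between the classes was not tested, and the WT side in rods rests on 203 cells, most of them in other clusters than most KO rods. In the single rod cluster shared by KO and WT (1171 and 46 cells) the Cox4i2 ratio was 0.436. Beside Rlbp1, Glul and Apoe reads, Cox4i2 stood at 0.966 to 1.99 times its Müller ratio in KO rods and 2.32 to 6.05 times in WT rods, and at 7.10 to 21.8 times in KO and 0.628 to 2.59 times in WT rod bipolar cells.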

How the results depend on the processing

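No paired analysis was possible because each group has 1 library and the shared replicate number pairs nothing. Under the settings run, 0 called ratios changed direction. Of the values for Ndufa4l2, rod bipolar Cox4i2 and gene counts, 119 stayed and 47 moved beyond their interval or by over 1.5-fold, and of those for single other genes 297 stayed and 34 moved. Ndufa4 KO over WT in Müller glia, not called, ran between 0.719 and 1.08. Rod bipolar Cox4i2 kept its calls, at 10.3 to 19.2 for KO over WT and 0.0525 to 0.114 for treated KO over KO. The class definition moved Müller values most. Settings in turn were Müller cells by their own markers, no clusters with 3 markers of another type (160, 113 and 122 treated KO, KO and WT cells), no clusters with 3 photoreceptor markers, clusters under 2000 CPM of rod markers, the mean of each cell's CPM, and no top 5 cells. Ndufa4l2 then had KO over WT ratios of 20.6, 9.89, 15.7, 21.4, 16.7 and 15.6 and treated KO over KO ratios of 0.0983, 0.127, 0.107, 0.0833, 0.107 and 0.111. Its treated KO over WT ratio was 2.02 (called) by markers and 1.25 without clusters carrying 3 markers of another type. That last setting left out clusters with 3 or more astrocyte markers and kept those with the highest summed rod markers (53102 and 44899 CPM). It is thus no check on mixing with rods. The Ndufa4l2 share of the pair's reads in treated KO, KO and WT was 25.7%, 80.3% and 16.0% by markers. It was 6.82%, 42.1% and 5.01% without clusters carrying 3 markers of another type. In clusters low in rod markers it was 28.1%, 82.8% and 17.1%, and with doublets kept 15.9%, 65.6% and 11.4%. It was 70.7% in KO without photoreceptor clusters, and 16.6% in treated KO and 11.6% in WT without the top 5 cells. Thinned to 2000 reads, 18.01%, 77.3% and 11.2% of Müller cells had an Ndufa4l2 read. The genes called higher and lower were 411 and 299 in KO over WT, 190 and 231 in treated KO over KO and 163 and 56 in treated KO over WT. Without clusters carrying 3 markers of another type they became 77 and 78, 87 and 68, and 21 and 14. With reads taken as molecules they became 707 and 637, 455 and 516, and 344 and 235. Treated KO over WT gave 81 higher without photoreceptor clusters, and 65 higher and 37 lower in clusters low in rod markers. Bnip3 KO over WT was called by markers (2.07) and in clusters low in rod markers (2.02). Cox4i2 treated KO over KO was called without clusters carrying 3 markers of another type (0.491). Bnip3 treated KO over KO lost its call with Gm45507 summed (0.503). The causes were not tested. The photoreceptor, rod-marker and Gm45507 settings and those in rod bipolar cells were chosen after seeing the data, and ON and OFF cone bipolar cells were not recomputed. Counting intervals bound depth only.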

Other observations

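A pair of other complex IV subunit genes moved in single comparisons and were chosen after their values were seen. Cox7a1, the muscle and heart isoform of subunit VIIa, was called higher in KO over WT in ON cone bipolar cells (9.93 against 2.57 CPM, ratio 3.86, 2.08 to 7.53) and in OFF cone bipolar cells (17.4 against 6.23 CPM, ratio 2.79, 1.71 to 4.64). In OFF cone bipolar cells it was called lower in treated KO over KO (4.37 against 17.4 CPM, ratio 0.251), and in Müller glia it read 10.9, 19.3 and 11.5 CPM in treated KO, KO and WT, with no call. Cox7c, another small subunit, was lowest in treated KO in Müller glia and both cone bipolar classes. It read 67.4, 117 and 136 CPM in treated KO, KO and WT Müller glia, 114, 186 and 234 CPM in ON cone bipolar cells and 112, 169 and 230 CPM in OFF cone bipolar cells. In these 3 classes it was called lower in treated KO over WT (ratios 0.494, 0.487 and 0.486). Beside it, 0.411%, 0.176% and 0.266% of all genes tested were called lower. In rod bipolar cells 0 of 9 complex IV subunits tested were called in that comparison.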
